A study of Mus musculus with 6 samples.

Results

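The keratin genes of mouse epididymal clear cells are described here across the caput, corpus and cauda. The members are every row of the deposited expression table whose gene name is Krt followed by a number and at most 1 letter, which leaves out the keratin-associated Krtap genes. They number 50 of 37578 rows, 28 of type I and 22 of type II. EGFP-positive clear cells had been sorted, in 2 sorting steps, from these regions of transgenic mice that were 12 weeks old and had received no treatment, and each of the 3 regions had 2 libraries. All 3 groups carried the same transgene, EGFP driven by the promoter of ATP6V1B1, which encodes the B1 subunit of the vacuolar proton pump, so the sort selected on activity of that promoter. Each library pooled 12 epididymides, and the labels do not say whether the pools of a region came from separate mice, so the spread behind each p-value is that between libraries and may be technical. No unsorted or wild-type group is analysed here, and the comparisons are between regions of the duct, with caput set against cauda, corpus against cauda and caput against corpus. The libraries held 18887128 to 24700717 reads in genes.

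Keratins are the intermediate filament proteins of epithelia. A filament is built from pairs of an acidic type I and a basic or neutral type II keratin, and the pair differs between kinds of epithelium. Krt8 (type II) and Krt18 (type I) are the founding pair of simple epithelia, Krt5 (type II) and Krt14 (type I) form the pair of basal cells, and the hair shaft is built from hair keratins of both types. The epididymal duct is lined by principal cells, with clear cells (which acidify the lumen), basal cells and others among them.

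Of the 50 keratins, 12 had no read in any of the 6 libraries, 20 had reads but too few to be tested, and 18 were tested. The untested 32 had at most 13 reads in a library and at most 0.327 RPKM (reads per kilobase of gene length and per unit of library size, with a library factor set by the authors). Tested were 5 of 6 keratins of simple epithelia, 4 of 4 of the basal layer, 4 of 16 suprabasal or other stratified keratins, 5 of 14 of the hair shaft, 0 of 8 of the hair root sheath and 0 of 2 others. The highest count among the untested, 13 reads, was Krt1 (a suprabasal keratin of epidermis) in caput 1, which had 6 reads in caput 2, against 5 and 2 in the corpus libraries, and 6 and 3 in those of cauda. No read fell on Krt6a, Krt6b (keratins of wound and hair follicle epithelium), Krt2 or Krt9 (keratins of epidermis) in any library. None could thus be seen above a floor of 3 reads, which is 0.088 to 0.175 CPM (reads of the gene scaled to a fixed library size) in single libraries. Of the 50-base windows of Krt6a and Krt6b transcripts, 49.5% and 50.1% recur in other genes. Reads without a unique position were not counted, so reads of both may have been lost.

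Keratins took 0.543% and 0.563% of reads in genes in caput libraries, 0.259% and 0.234% in corpus libraries, and 0.185% and 0.157% in cauda libraries. Exact 95% intervals of these shares cover counting error only and run from 0.5401% to 0.5667% over the caput libraries, from 0.2324% to 0.261% over corpus and from 0.1557% to 0.1868% over cauda. Per length the regions lay closer together, with a summed keratin level of 1690 and 1710 RPKM in caput, 1680 and 1530 RPKM in corpus, and 1400 and 1170 RPKM in cauda. The RPKM values carry a scaling factor of each library as well as the length, so the 2 scales need not give the same order.

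The sorted cells expressed most of the clear cell markers in all 3 regions, at levels that differed. Of the 14 listed 13 were tested, all higher in caput than in cauda, against 33.9% of all tested genes. In caput minus corpus 12 were higher (background 33.2%) and 1 lower (31.8%). The lower one was Car2, with 166 and 179.1 RPKM in caput, 438.8 and 498.5 RPKM in corpus, and 85.2 and 105.9 RPKM in cauda. The untested Oxgr1 had 2 reads in caput, 0 in corpus and 2 in cauda. Foxi1, the transcription factor of proton-secreting cells, had 1053 and 946 RPKM in caput, 161 and 162 RPKM in corpus, and 63 and 84.9 RPKM in cauda. Genes of principal cells were present as well. The 14 listed summed to 5710 and 7450 RPKM in caput, 31600 and 39100 RPKM in corpus, and 56500 and 54000 RPKM in cauda. In corpus and cauda these sums were mostly Crisp1, a secreted sperm-coating protein, which had 2380 of the 7450 RPKM in caput 2. Of the 14, 9 were higher in caput than in cauda, against 33.9% of all tested genes, and 5 lower, against 33%. Aqp9 is the water and solute channel of principal cells. It had 6.86 and 3.95 RPKM in caput, 41.8 and 42.6 RPKM in corpus, and 52.7 and 51.4 RPKM in cauda. Of the leukocyte markers, Ptprc, the pan-leukocyte surface protein, was between 0.0883 and 0.63 RPKM. Cd79a of the same list had 1.15 and 5.94 RPKM in caput, 6.94 and 9.89 RPKM in corpus, and 1.18 and 6.1 RPKM in cauda. The 8 listed summed to 5.94 and 9.77 RPKM in caput, 14.9 and 14.2 RPKM in corpus, and 4.36 and 8.75 RPKM in cauda. The 9 stromal and vascular markers summed to 313 and 328 RPKM in caput, 77.1 and 71.7 RPKM in corpus, and 200 and 238 RPKM in cauda. Most of that was Dcn, the 1 member higher in caput than in cauda, against 33.9% of all tested genes. The 4 lower members (background 33%) were Col1a1, Col1a2, Col3a1 and Lum. Sperm transcripts set caput 2 apart, with a sum over 7 genes of 41.2 and 322 RPKM in caput, 0.321 and 55.8 RPKM in corpus, and 28.3 and 90.3 RPKM in cauda. In bulk libraries fewer cells of a type and less RNA per cell cannot be told apart, and the part of these markers in the keratin differences was not tested.

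**Figure D1:**
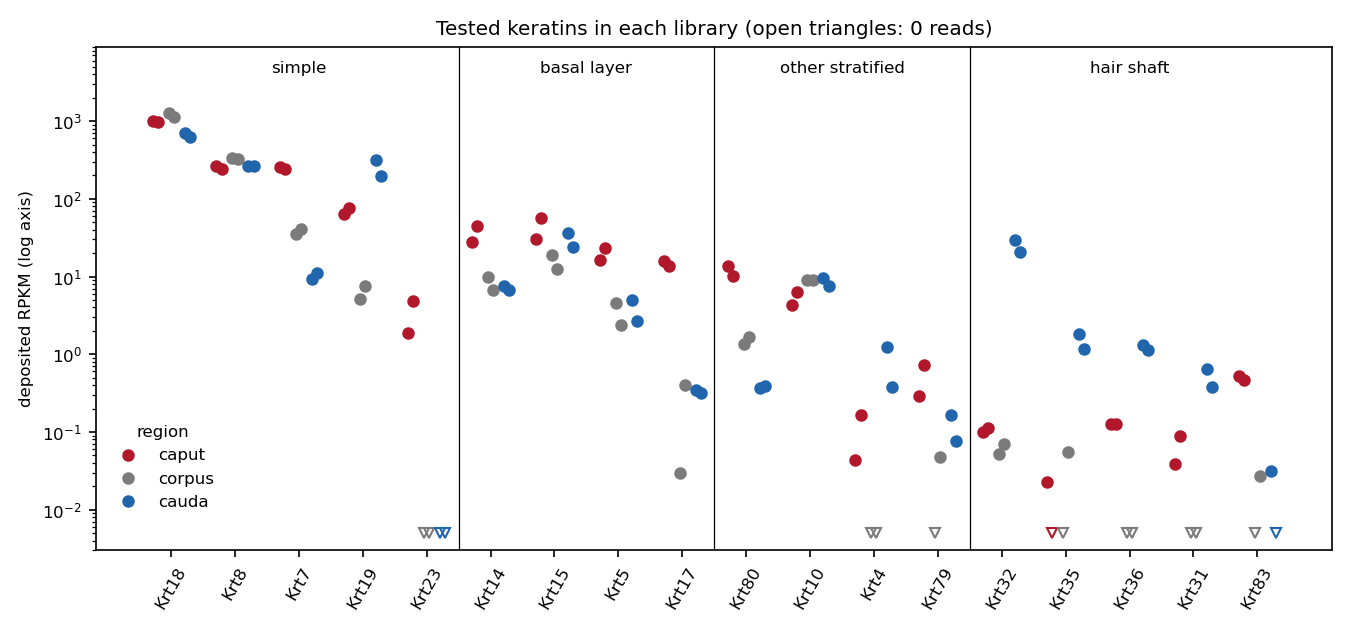
Deposited RPKM (log axis) of the 18 tested keratins in each of the 6 libraries, grouped by kind of epithelium; filled circles are libraries, and open triangles at the lower edge are libraries with 0 reads. Krt18 lies highest in every library, Krt7 declines along the duct, Krt19 is lowest in corpus, and Krt32, Krt35, Krt36 and Krt31 are high in cauda only among the 3 regions.

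Tested in 1 model over all genes, 16 of the 18 tested keratins differed between caput and cauda, where 66.9% of the 15816 genes tested did. In that comparison 9 keratins were higher in caput, against a background of 33.9% of genes, and 7 were lower, against 33%. Between corpus and cauda 10 keratins differed (background 35.4%), 4 higher in corpus (17.3%) and 6 lower (18%). Between caput and corpus 13 differed (background 65%), 10 higher in caput (33.2%) and 3 lower (31.8%). With library totals in place of TMM factors the caput minus corpus split was 14 higher and 0 lower, since Krt18, Krt8 and Krt10 left the lower side. Over any region 17 of 18 differed, against 75.1% of all genes, and Krt15 was the exception. The median log2 fold change of the tested keratins was 0.47 in caput minus cauda, -0.35 in corpus minus cauda and 2.78 in caput minus corpus, against 0.04, 0 and 0.04 over all tested genes. Krt23, Krt79, Krt4, Krt32, Krt35, Krt36, Krt31 and Krt83 passed the filter on low counts only through the region where they are high. The filter thus selected them for being high there, so their calls are no separate evidence of a difference. Both the counts of calls and the medians are given only as a description of the members that passed. The corpus minus cauda median also includes Krt23, which had 0 reads in both of those regions. Fold changes below are log2 values ± SE from edgeR's quasi-likelihood test, with p-values adjusted over all 15816 genes by the Benjamini-Hochberg method.

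The keratins of simple epithelia made up most of the keratin level in every library, and their composition changed along the duct. Krt18 and Krt8 were the base of all 3 regions, Krt7 (a type II keratin of ducts and glands) rose strongly in caput, and Krt19 (a type I keratin of ducts, with a very short tail domain) was high in cauda, intermediate in caput and low in corpus. Together the 6 summed to 1580 and 1550 RPKM in caput, 1630 and 1500 RPKM in corpus, and 1300 and 1100 RPKM in cauda. Krt18 and Krt8 are neighbours at the end of the keratin cluster on chromosome 15, and Krt7 lies at its other end, next to Krt80. The 250 bases before the start of these 3 genes are shown because the genes are the most abundant type II keratins and their type I partner, yet Krt7 moved along the duct on another scale than the Krt8 and Krt18 pair. They were taken from RefSeq on GRCm38.p6, are written 5′ to 3′ on the gene's strand, and carry in capitals any match to the 5 motifs searched on both strands.
Krt7, chr15:101412153-101412402, plus strand: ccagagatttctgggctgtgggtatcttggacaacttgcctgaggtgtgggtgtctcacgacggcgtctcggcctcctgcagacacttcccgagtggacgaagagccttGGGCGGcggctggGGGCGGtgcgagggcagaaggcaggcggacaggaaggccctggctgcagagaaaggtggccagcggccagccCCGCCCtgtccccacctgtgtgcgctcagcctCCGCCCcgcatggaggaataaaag
Krt8, chr15:102004343-102004592, minus strand: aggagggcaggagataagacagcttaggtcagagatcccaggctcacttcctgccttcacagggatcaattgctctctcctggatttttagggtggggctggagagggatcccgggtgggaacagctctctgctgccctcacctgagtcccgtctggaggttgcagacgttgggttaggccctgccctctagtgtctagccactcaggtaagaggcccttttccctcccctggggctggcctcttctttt
Krt18, chr15:102027966-102028215, plus strand: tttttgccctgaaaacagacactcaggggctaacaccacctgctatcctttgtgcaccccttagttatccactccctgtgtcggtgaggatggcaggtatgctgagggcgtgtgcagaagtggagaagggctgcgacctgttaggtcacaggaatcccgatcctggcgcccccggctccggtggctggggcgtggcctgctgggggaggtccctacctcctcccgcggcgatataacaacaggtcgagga
The motifs were the TATA box, spelled TATAAA, the CCAAT box, the GC box, spelled GGGCGG, the AP-1 site, spelled TGANTCA, and the core of forkhead sites, spelled TGTTNAC. The Krt7 window holds 4 GC boxes, whose first bases lie 141 and 128 bases before the start on the gene's strand and 56 and 24 bases before it on the opposite strand. The Krt8 and Krt18 windows hold none of the 5 motifs. The windows are 66%, 58% and 60.4% G and C for Krt7, Krt8 and Krt18. Over 32851 promoter windows of the same length 32.7% hold a GC box, and 2 of the 34 keratin windows found in RefSeq do (5.88%). The forkhead core is in 8.69% of all windows and in 0 of the 34 keratin windows.

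Krt18 (ENSMUSG00000023043) was the most abundant keratin per deposited length in every library, with 992 and 980 RPKM in caput, 1260 and 1130 RPKM in corpus, and 713 and 631 RPKM in cauda. No 2 regions overlapped. It was higher in caput than in cauda by 0.49 ± 0.09 (adjusted p = 0.00101), higher in corpus than in cauda by 0.83 ± 0.09 (adjusted p = 0.000114), and lower in caput than in corpus by -0.34 ± 0.09 (adjusted p = 0.0087). Its type II partner Krt8 (ENSMUSG00000049382) had 266 and 244 RPKM in caput, 331 and 323 RPKM in corpus, and 261 and 265 RPKM in cauda, so corpus stood above both ends, which overlapped each other. Krt8 differed by -0.11 ± 0.07 in caput minus cauda (adjusted p = 0.208), 0.31 ± 0.07 in corpus minus cauda (adjusted p = 0.00868) and -0.42 ± 0.07 in caput minus corpus (adjusted p = 0.000709). The small differences of this pair depend on the scaling: with library totals in place of TMM factors, the caput minus cauda change of Krt8 was 0.75 (adjusted p = 1.06e-05), and in caput minus corpus Krt18 was 0.25 (adjusted p = 0.0302) and Krt8 0.17 (adjusted p = 0.0603). That scaling moves the median of all genes to 0.9 in caput minus cauda, 0.27 in corpus minus cauda and 0.63 in caput minus corpus. The Krt18 difference between caput and corpus was also lost without corpus 1, at -0.27 (adjusted p = 0.0613). The level ratio of Krt8 to Krt18 within a library, which no library scaling can change, was 0.268 and 0.249 in caput libraries, 0.263 and 0.287 in corpus libraries, and 0.366 and 0.42 in cauda libraries. Of the 50-base windows of Krt8 transcripts 26.9% recur in other genes, mostly in the pseudogene Krt8-ps, against 0.72% for Krt18. Reads without a unique position were not counted, so the Krt8 level is uncertain.

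Krt7 (ENSMUSG00000023039) declined along the duct, and with 60254 and 50610 reads it had more reads in caput than any other keratin. Its level was 256 and 246 RPKM in caput, 35.3 and 41.4 RPKM in corpus, and 9.21 and 11.2 RPKM in cauda, so the 3 regions were far apart and in the order of the duct. It was higher in caput than in cauda by 4.55 ± 0.13 (adjusted p = 9.1e-09), higher in corpus than in cauda by 1.9 ± 0.12 (adjusted p = 3.45e-06), and higher in caput than in corpus by 2.65 ± 0.12 (adjusted p = 1.3e-07). The ratio of Krt7 to Krt8 within a library was 0.965 and 1.01 in caput libraries, 0.107 and 0.128 in corpus libraries, and 0.0353 and 0.0425 in cauda libraries. Foxi1 moved in the same order, by 3.69 in caput minus cauda and 1.12 in corpus minus cauda. The level of Krt7 against other keratins depends on the gene length used: the deposited length is 7163 bases, the longest coding transcript of GENCODE M21 4094 bases and its coding length 1371 bases. Per coding length Krt7 stood at 1340 and 1280 in caput libraries, 185 and 216 in corpus libraries, and 48.1 and 58.8 in cauda libraries, against 1090 and 1080, 1380 and 1240, and 783 and 693 for Krt18 in the same order of regions. Krt7 was then the highest keratin in caput, where per deposited length it was about level with Krt8. Which length fits the transcript made in these cells was not tested.

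Krt19 (ENSMUSG00000020911) had a pattern of its own among the tested keratins of simple epithelia, with 64.7 and 75.8 RPKM in caput, 5.15 and 7.5 RPKM in corpus, and 318 and 197 RPKM in cauda. The regions did not overlap, although the cauda libraries differed from each other more than those of caput. It was lower in caput than in cauda by -1.94 ± 0.3 (adjusted p = 0.00405), lower in corpus than in cauda by -5.35 ± 0.36 (adjusted p = 0.000555), and higher in caput than in corpus by 3.41 ± 0.34 (adjusted p = 0.000888). As a ratio to Krt18 it was 0.0652 and 0.0774 in caput libraries, 0.00408 and 0.00665 in corpus libraries, and 0.447 and 0.312 in cauda libraries. Among the principal cell markers Crisp1 had 3229 and 2380 RPKM in caput, 30290 and 37750 RPKM in corpus, and 53190 and 50600 RPKM in cauda. Gpx5, a secreted glutathione peroxidase of the same list, was lowest in corpus. It had 851 and 1410 RPKM in caput, 0.663 and 1.35 RPKM in corpus, and 358 and 356 RPKM in cauda. Rnase10 of that list was also lowest in corpus. Of the others, Adam7, Aqp9, Crisp1 and Lcn12 rose from caput to cauda, and Pate4 was highest in corpus. Lcn5 fell along the duct, and Adam28, Lcn8, Lcn9, Lcn10, Cst8 and Cst11 were high in caput only. The part of principal cells in the Krt19 level was not tested.

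Krt23, a type I keratin of simple epithelia, was seen in caput only and passed the filter on low counts through that region alone. Krt23 had 97 and 216 reads (1.9 and 4.83 RPKM) there and 0 reads in all 4 libraries of corpus and cauda. Set against a floor of 3 reads over the group, it was at least 61.9-fold higher in caput than in corpus (adjusted p = 0.000768) and at least 58.5-fold higher in caput than in cauda (adjusted p = 0.000753). The caput libraries differed from each other, and a DESeq2 test made no call, with adjusted p = 0.106 for caput minus cauda and 0.1 for caput minus corpus. Krt20, a keratin of gut and bladder lining, had 5 reads, all in cauda 1, and was not tested.

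**Figure D2:**
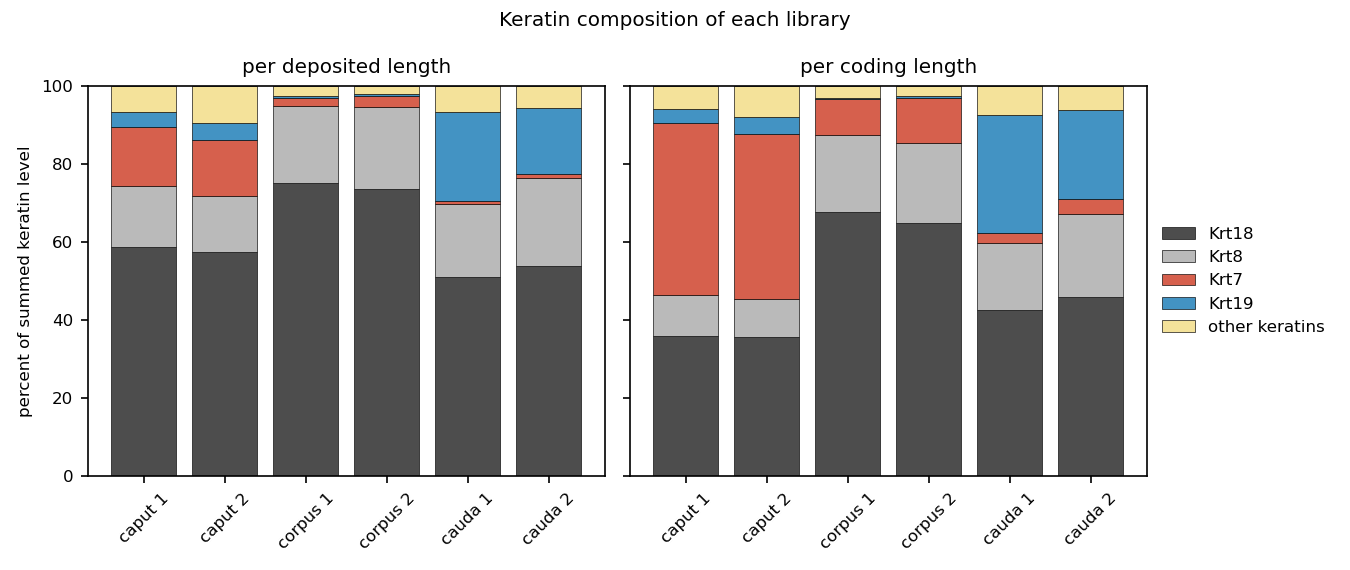
Percent of the summed keratin level taken by Krt18, Krt8, Krt7, Krt19 and all other keratins in each library, per deposited gene length (left) and per coding length (right). Krt7 takes 15.2% and 14.4% in caput on the left and 44% and 42.4% on the right, and Krt19 takes its largest share in cauda on both.

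As shares of the summed level per deposited length, Krt18 took 58.7% and 57.4% in caput libraries, 75.2% and 73.6% in corpus libraries, and 51.1% and 53.9% in cauda libraries. Krt7 took 15.2% and 14.4% in caput libraries, 2.11% and 2.7% in corpus libraries, and 0.659% and 0.961% in cauda libraries. Krt19 took 3.82% and 4.44% in caput libraries, 0.307% and 0.489% in corpus libraries, and 22.8% and 16.8% in cauda libraries. In corpus Krt18 and Krt8 (19.7% and 21.1%) thus left little to the other keratins. The summed level of type I over that of type II was 2.16 ± 0.134 in caput, 3.33 ± 0.247 in corpus and 3.61 ± 0.608 in cauda (SD, n = 2 each), and it was lower in both caput libraries than in any other. Per coding length the ratio in caput was 0.792, so that type II exceeded type I there, against 2.24 in corpus and 3.38 in cauda. These are ratios of RNA levels and say nothing of protein.

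The basal layer keratins Krt5, Krt14 and Krt17 were higher in caput than in the other regions, and Krt15 passed the test in no comparison. The 4 summed to 90.2 and 137 RPKM in caput, 33.5 and 22 RPKM in corpus, and 49.2 and 33.9 RPKM in cauda. Of the 4, 3 were called in caput minus cauda, where 66.9% of all tested genes were, and 3 in caput minus corpus, where 65% were. Between corpus and cauda, where 35.4% of all tested genes were called, 0 of 4 were called by edgeR, DESeq2 or limma, with 0 at an unadjusted p under 0.05. Krt14 had 27.8 and 44.4 RPKM in caput, 9.81 and 6.76 RPKM in corpus, and 7.62 and 6.69 RPKM in cauda. Its partner Krt5 had 16.2 and 23.2 RPKM in caput, 4.58 and 2.4 RPKM in corpus, and 5 and 2.71 RPKM in cauda. Both caput libraries lay above all others for both genes, while corpus and cauda overlapped.

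Krt14 was higher in caput than in cauda by 2.27 ± 0.29 (adjusted p = 0.00053) and than in corpus by 2.07 ± 0.28 (adjusted p = 0.000834), and differed by 0.2 ± 0.3 in corpus minus cauda (adjusted p = 0.645). Krt5 was higher in caput than in cauda by 2.29 ± 0.43 (adjusted p = 0.00645) and than in corpus by 2.45 ± 0.44 (adjusted p = 0.00546), and differed by -0.15 ± 0.46 in corpus minus cauda (adjusted p = 0.84). The fold changes of the pair differed by less than the SE of Krt5 in both caput comparisons. Krt17, a keratin of basal and appendage cells induced in injured epithelium, had 16.1 and 13.5 RPKM in caput, 0.0301 and 0.406 RPKM in corpus, and 0.342 and 0.321 RPKM in cauda. It was higher in caput than in cauda by 5.4 ± 0.47 (adjusted p = 3.71e-05) and than in corpus by 5.95 ± 0.5 (adjusted p = 3.15e-05), and differed by -0.54 ± 0.74 in corpus minus cauda (adjusted p = 0.617). The corpus libraries had 1 and 15 reads of Krt17, and they set the corpus values: without corpus 2 the caput minus corpus change was 8.75, without corpus 1 it was 5.1, and without corpus 2 the corpus minus cauda change was -3.35 (adjusted p = 0.0138). Krt15, a type I keratin of basal cells and of the stem cell region of the hair follicle, had 30.1 and 56.2 RPKM in caput, 19.1 and 12.4 RPKM in corpus, and 36.2 and 24.2 RPKM in cauda. Caput and cauda overlapped and corpus lay below both. Its changes were 0.45 ± 0.45 in caput minus cauda (adjusted p = 0.431), -0.95 ± 0.47 in corpus minus cauda (adjusted p = 0.216) and 1.4 ± 0.47 in caput minus corpus (adjusted p = 0.0623). The last was called with DESeq2 (1.41, adjusted p = 0.00994), with limma on RPKM (1.39, adjusted p = 0.0315), with library totals (1.99, adjusted p = 0.0219) and without caput 1 (1.8, adjusted p = 0.026).

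**Figure D3:**
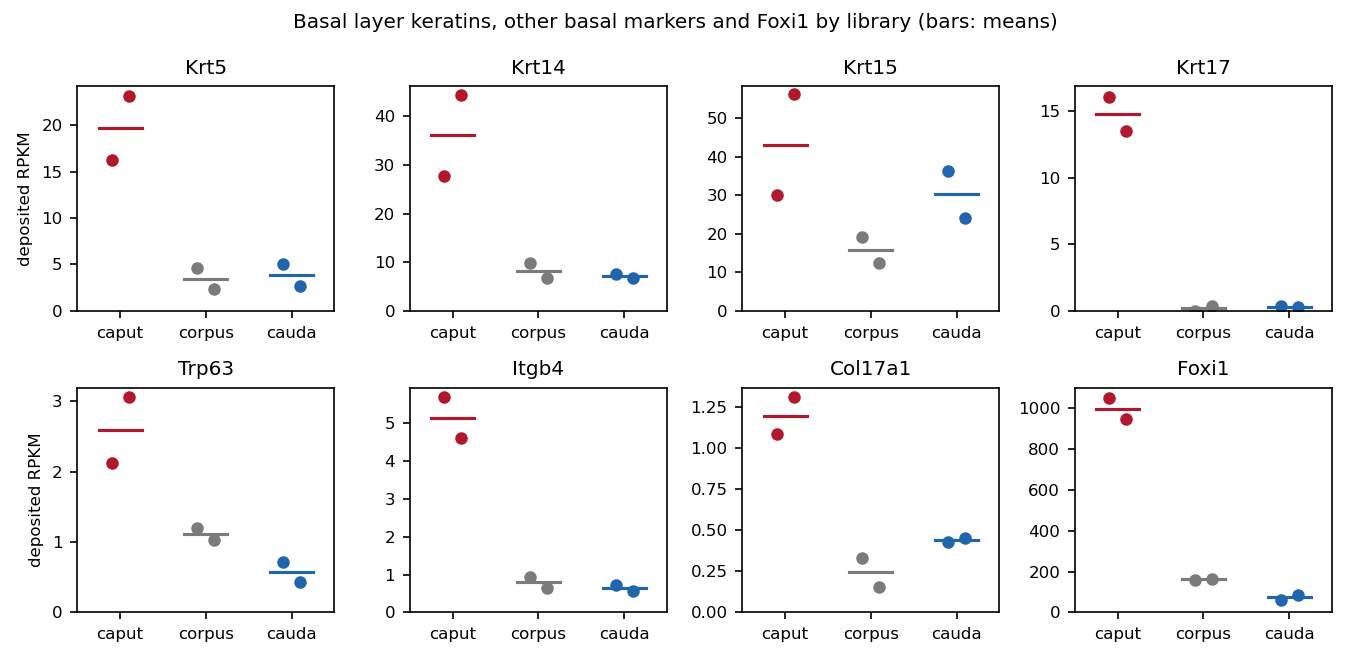
Deposited RPKM per library of the 4 basal layer keratins (upper row) and of the basal markers Trp63, Itgb4 and Col17a1 and the clear cell factor Foxi1 (lower row), with a bar at each region's mean of 2 libraries. Krt5, Krt14 and Krt17 and the 4 genes of the lower row are highest in caput, and the Krt15 values of caput and cauda overlap.

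Other markers of basal cells were in part higher in caput too. Of 16 such genes 14 were tested, and 13 were higher in caput than in cauda, against 33.9% of all tested genes, with a median log2 fold change of 1.55. In caput minus corpus 8 of the 14 were higher (background 33.2%) and 1 lower (31.8%), with a median of 1.44. The lower marker was Itga6, a hemidesmosomal integrin, at -1.47 (adjusted p = 2.49e-05), while the changes of Cldn1, Cdh3 and Itgb6 were 0.01, 0.23 and 0.09 and none of the 3 was called. Their summed level was 97.9 and 103 RPKM in caput, 48 and 44.6 RPKM in corpus, and 35.4 and 33.8 RPKM in cauda, and the untested Aqp3 and Ngfr were at 0 in both corpus libraries. Trp63, the master factor of basal cells, had 2.13 and 3.06 RPKM in caput, 1.2 and 1.03 RPKM in corpus, and 0.715 and 0.431 RPKM in cauda, and was higher in caput than in cauda by 2.12 (adjusted p = 0.00017). Itgb4, the integrin of hemidesmosomes, to which basal keratins attach, was 2.94 higher in caput (adjusted p = 1.63e-06). Between corpus and cauda 8 of the 14 were higher in corpus (background 17.3%) and 3 lower (18%), where 0 of 4 basal keratins were called. The part of basal cells in the keratin levels was not tested. Within regions, Krt14, Krt15 and Krt5 differed between replicates in the same direction: library 2 over library 1 was 1.6, 1.87 and 1.43 in caput libraries, 0.689, 0.649 and 0.523 in corpus libraries, and 0.877, 0.668 and 0.542 in cauda libraries. The same ratio of Krt17 was 0.839, 13.5 and 0.938 in caput, corpus and cauda, so it went the other way in caput and corpus. Other basal markers varied, with 1.44, 0.86 and 0.603 for Trp63, 0.811, 0.685 and 0.799 for Itgb4 and 0.982, 1.32 and 1.08 for the laminin chain Lama3. The ratio of Krt15 to Krt5 within a library separated the regions: it was 1.85 and 2.43 in caput libraries, 4.17 and 5.18 in corpus libraries, and 7.25 and 8.93 in cauda libraries, while that of Krt14 to Krt5 was 1.71 and 1.92 in caput libraries, 2.14 and 2.82 in corpus libraries, and 1.52 and 2.47 in cauda libraries.

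Among suprabasal and other stratified keratins, Krt80 and Krt10 were the members above 10 CPM. Krt80, a type II keratin found at the desmosomes of many epithelia, had 13.7 and 10.3 RPKM in caput, 1.37 and 1.68 RPKM in corpus, and 0.369 and 0.391 RPKM in cauda. It showed the order of Krt7, its neighbour on the chromosome, with no overlap between regions. It was higher in caput than in cauda by 4.9 ± 0.21 (adjusted p = 5.45e-08), higher in corpus than in cauda by 2 ± 0.22 (adjusted p = 0.000119), and higher in caput than in corpus by 2.9 ± 0.17 (adjusted p = 5.9e-07). The corresponding changes of Krt7 were 4.55, 1.9 and 2.65. Krt10, the type I keratin of the suprabasal epidermis, had 4.34 and 6.3 RPKM in caput, 8.95 and 8.93 RPKM in corpus, and 9.7 and 7.47 RPKM in cauda. It was lower in caput than in cauda by -0.75 ± 0.2 (adjusted p = 0.00937) and than in corpus by -0.81 ± 0.2 (adjusted p = 0.00667), and differed by 0.06 ± 0.2 in corpus minus cauda (adjusted p = 0.86). The caput minus cauda call was lost without cauda 1 (-0.55, adjusted p = 0.0936), and with library totals its change was 0.11 (adjusted p = 0.645) there and -0.22 (adjusted p = 0.368) in caput minus corpus. The usual partner of Krt10, Krt1, had too few reads to test.

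Krt4, a type II keratin of the mucosa of mouth and oesophagus, passed the filter on low counts only through cauda, where it is high. Krt4 had 0.0431 and 0.164 RPKM in caput, 0 in both corpus libraries, and 1.24 and 0.379 RPKM in cauda. It was lower in caput than in cauda by -3.02 ± 0.85 (adjusted p = 0.0135) and at least 21.5-fold lower in corpus than in cauda (adjusted p = 0.00504). Both calls rested on single libraries: the caput comparison was lost without caput 1 (-2.32, adjusted p = 0.0503) and without cauda 1 (-1.92, adjusted p = 0.238), was -4.22 without caput 2 and -3.63 without cauda 2, and the corpus comparison was lost without cauda 1 (adjusted p = 0.0506). In caput minus corpus it missed the threshold (at least 2.57-fold higher, adjusted p = 0.0544), which DESeq2 passed (adjusted p = 0.0331). Krt79 is a type II keratin of the hair follicle canal and sebaceous duct. Only caput, where it is high, carried it past the filter on low counts. Krt79 had 0.292 and 0.733 RPKM in caput, 0 and 0.0478 RPKM in corpus, and 0.164 and 0.0771 RPKM in cauda. It was higher in caput than in cauda by 2.01 ± 0.8 (adjusted p = 0.0487), a call that was lost without any 1 of caput 2 (1.19, adjusted p = 0.284), corpus 1, corpus 2, cauda 1 (2.63) or cauda 2 (1.56), with adjusted p between 0.0652 and 0.287, and with DESeq2 (adjusted p = 0.155). Over corpus the ratio in caput was 19-fold, with a 95% counting interval of 5.04 to 160 (adjusted p = 0.0053). The fitted log2 change of 4.16 was 3.34 without caput 2, 3.28 without corpus 1 (adjusted p = 0.054) and 7.61 without corpus 2. Krt77, a type II keratin of sweat gland ducts, was untested, with 14 reads in cauda and 0 elsewhere.

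A run of type I hair shaft keratins had most of its reads in the cauda libraries, mainly through Krt32. Krt32, a type I keratin of the hair cuticle, was above 20 RPKM there and near 0 in the other regions, and the 6 other type I hair keratins that lie beside it had most of their reads in cauda as well. On chromosome 11 the RefSeq order is Krt33a, Krt33b, Krt34, Krt31, Krt32, Krt35 and Krt36, a run of 7 genes, of which 4 were tested. These 4 passed the filter on low counts only through cauda, where they are high. Over these 7 genes caput had 36 reads, corpus 11 and cauda 2202, of which Krt32 had 1921. Krt39 and Krt40, the type I hair keratins just before Krt33a in the gene order, had no read in any library. The 250 bases before the starts of Krt31, Krt32 and Krt36 are shown because these neighbours moved together, from the same table and with the same 5 motifs in capitals.
Krt32, chr11:100088270-100088519, minus strand: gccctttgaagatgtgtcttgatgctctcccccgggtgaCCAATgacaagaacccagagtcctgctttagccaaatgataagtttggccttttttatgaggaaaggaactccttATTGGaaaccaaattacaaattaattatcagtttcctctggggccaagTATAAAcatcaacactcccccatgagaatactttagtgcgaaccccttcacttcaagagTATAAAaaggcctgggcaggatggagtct
Krt31, chr11:100050552-100050801, minus strand: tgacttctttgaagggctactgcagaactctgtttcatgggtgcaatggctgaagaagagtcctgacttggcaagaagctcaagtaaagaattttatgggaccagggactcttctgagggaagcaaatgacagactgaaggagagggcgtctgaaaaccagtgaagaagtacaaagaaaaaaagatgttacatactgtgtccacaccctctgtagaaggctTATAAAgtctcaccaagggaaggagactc
Krt36, chr11:100105627-100105876, minus strand: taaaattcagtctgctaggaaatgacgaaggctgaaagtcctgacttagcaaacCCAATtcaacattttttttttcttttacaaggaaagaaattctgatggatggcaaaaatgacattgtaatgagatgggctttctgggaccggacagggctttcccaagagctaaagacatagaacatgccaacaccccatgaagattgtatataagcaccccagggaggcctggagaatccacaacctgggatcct
The Krt32 window holds TATAAA at 88 and 29 bases before the start and CCAAT at 211 bases on the gene's strand and 136 bases on the opposite strand. The Krt31 window holds TATAAA at 29 bases, and the Krt36 window CCAAT at 196 bases. Bases shortly after the start were found in GENCODE transcripts of Krt31 and Krt36 but not of Krt32. The Krt32 positions thus rest on the RefSeq start alone. The windows are 43.6%, 44.8% and 42.8% G and C for Krt32, Krt31 and Krt36. TATAAA is in 12.4% of all 32851 windows and in 16 of the 34 keratin windows (47.1%), and CCAAT is in 33.8% of all and in 12 of the 34 (35.3%). AP-1 is in 6.75% of all windows and in 1 of the 34 (2.94%). No 2 matches overlap in these windows, and a match is a description of the window only.

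Krt32 (ENSMUSG00000046095) had 7 reads in each caput library, 2 and 3 reads in the corpus libraries, and 1091 and 830 in those of cauda. Its level was 0.0995 and 0.114 RPKM in caput, 0.0516 and 0.0698 RPKM in corpus, and 29.1 and 20.8 RPKM in cauda. It was lower in caput than in cauda by -7.91 ± 0.27 (adjusted p = 2.06e-08) and lower in corpus than in cauda by -8.62 ± 0.31 (adjusted p = 1.73e-07). Caput minus corpus was 0.71 ± 0.65 (adjusted p = 0.371). In cauda Krt32 took 2.08% and 1.77% of the summed keratin level per deposited length, more than Krt5; it exceeded Krt7 on that length but not per coding length. No 50-base window of its transcripts recurs in another gene.

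The neighbours were lower in level. Krt35, an early keratin of the hair cortex and cuticle, had 2 and 0 reads in the caput libraries, 0 and 3 in those of corpus, and 86 and 59 in those of cauda (1.83 and 1.18 RPKM). It was 129-fold lower in caput than in cauda, with a 95% counting interval of 35.2 to 1080 (adjusted p = 0.000114), and 51.1-fold lower in corpus, with an interval of 17.2 to 251 (adjusted p = 0.00088). Its fitted log2 change in caput minus cauda, -6.8, was -9.39 without caput 1 and -5.99 without caput 2, and that in corpus minus cauda, -5.6, was -4.7 without corpus 1 and -9.59 without corpus 2. Krt36, a type I hair keratin, had 0.128 and 0.125 RPKM in caput, 0 in both corpus libraries, and 1.31 and 1.13 RPKM in cauda. It was lower in caput than in cauda by -3.29 ± 0.56 (adjusted p = 0.000844), at least 25.7-fold lower in corpus than in cauda (adjusted p = 0.000373) and at least 2.57-fold higher in caput than in corpus (adjusted p = 0.00968). Its neighbour Krt31, a keratin of the hair cortex, had 0.0387 and 0.0884 RPKM in caput, 0 in both corpus libraries, and 0.654 and 0.375 RPKM in cauda. The Krt31 change was -3.03 ± 0.79 in caput minus cauda (adjusted p = 0.00888), and Krt31 was at least 10.2-fold lower in corpus than in cauda (adjusted p = 0.00481). The Krt31 calls were fragile: caput minus cauda was lost without caput 1 (-2.53, adjusted p = 0.0541), without cauda 1 (-2.57, adjusted p = 0.156), without cauda 2 (-3.37, adjusted p = 0.0587) and in DESeq2 (-3.07, adjusted p = 0.0639), was -3.68 without caput 2, and corpus minus cauda was lost without corpus 2 (adjusted p = 0.0522) or cauda 1 (adjusted p = 0.068). The untested members had 1, 3 and 16 reads in caput, corpus and cauda for Krt33a, 0, 0 and 12 for Krt33b, and 0, 0 and 6 for Krt34. Of the 50-base windows of Krt31, Krt33a, Krt33b and Krt34 transcripts 21.9% to 33.1% recur in other genes, so reads among these 4 may have been lost or shared.

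**Figure D4:**
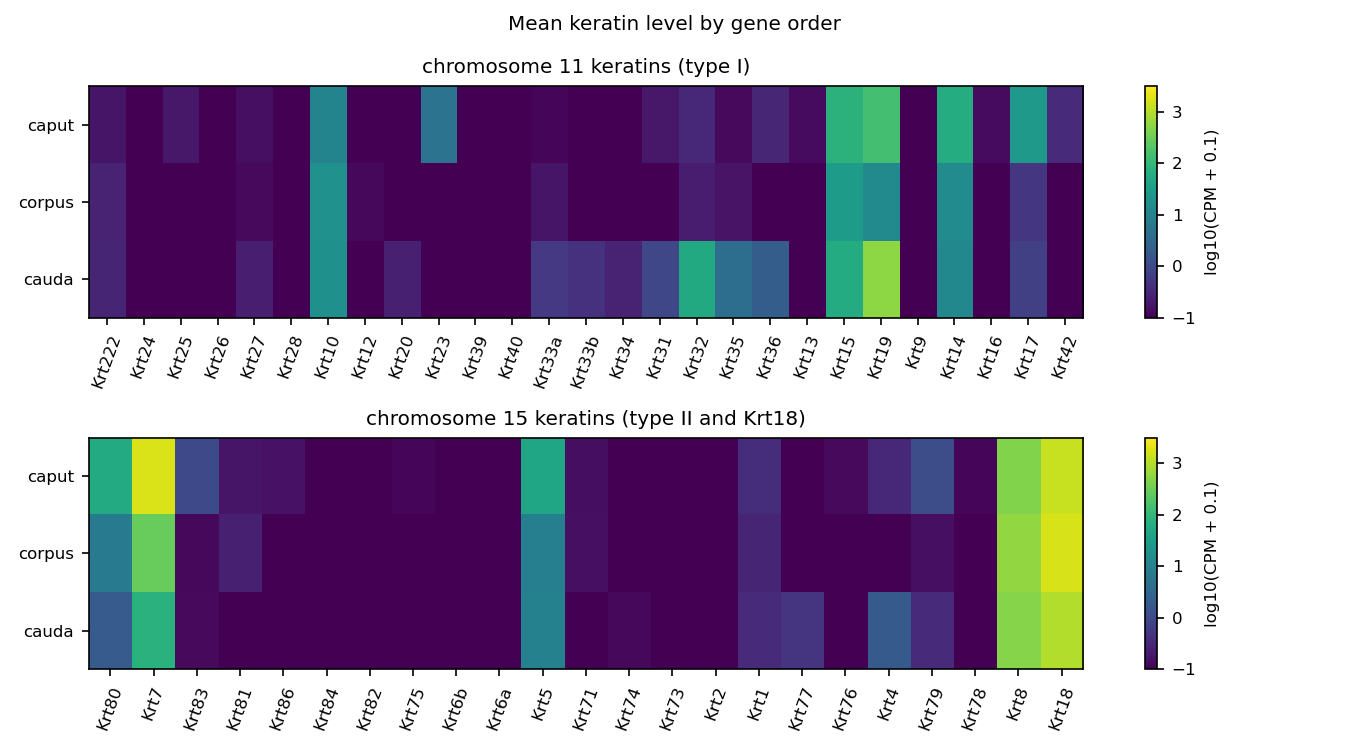
Mean level of each keratin in the 3 regions, as log10(CPM + 0.1), in the order of the genes along chromosome 11 (upper panel, 27 genes) and chromosome 15 (lower panel, 23 genes). The run from Krt33a to Krt36 is brighter in cauda than in caput or corpus, and Krt80 and Krt7 darken from caput to cauda.

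The type II hair keratins did not share this pattern. The summed level of the type I hair keratins was 0.304 and 0.328 RPKM in caput, 0.105 and 0.15 RPKM in corpus, and 33.5 and 24 RPKM in cauda. The 5 type II members beside Krt7 had 66 reads in caput, 7 in corpus and 1 in cauda. Of these only Krt83 was tested, and it passed the filter on low counts only through caput, where it is high. Krt83 had 32 and 25 reads in the caput libraries, 0 and 1 in those of corpus, and 1 and 0 in those of cauda. It was 32-fold higher in caput than in cauda (95% counting interval 5.51 to 1280, adjusted p = 0.0024) and 33.8-fold higher in caput than in corpus (interval 5.83 to 1360, adjusted p = 0.00224). Its fitted log2 change in caput minus cauda, 4.74, was 7.43 without cauda 1 and 3.83 without cauda 2, and that in caput minus corpus, 4.82, was 4 without corpus 1 and 7.4 without corpus 2. The gene named Krt83 in the deposited table is called Krt87 in GENCODE M21, and 36.9% of its 50-base windows recur elsewhere. For Krt81 and Krt86, 43.5% and 43.3% of these windows recur in other genes, so reads of both may have been lost. Krt85, another type II hair keratin, is not among the members and was not measured. In cauda the type I hair keratins were thus not matched by the 5 type II hair keratins that were measured. The type II keratins with the most reads there were Krt8 and Krt7. Clear cell markers had their lowest sum in cauda. They summed to 3730 and 3570 RPKM in caput, 1130 and 1330 RPKM in corpus, and 403 and 515 RPKM in cauda. Principal cell markers had their highest sum in cauda, where it was mostly Crisp1. Of the 14 principal cell markers, however, 9 were higher in caput than in cauda (background 33.9%) and 5 were lower (33%). The part of either cell type in the hair keratin levels was not tested.

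Other hair and cornified genes were given by list. Of 8 hair follicle genes 3 were tested, and 2 of them, Lef1 and Msx2, factors also used outside hair, were higher in caput (background 33.9%), by 3.07 (adjusted p = 2.98e-08) and 1.79 (adjusted p = 7.24e-06) over cauda. Hoxc13, a regulator of hair keratin genes, and Padi3, an enzyme of the hair shaft, had 0 in all 6 libraries. Of 55 Krtap genes, which encode the matrix of the hair shaft, 3 were above 0, and the highest was Krtap11-1, with 0 and 0.104 RPKM in caput, 0 in both corpus libraries, and 1.14 and 4.53 RPKM in cauda. Of 16 cornified epithelium genes 7 were tested, 1 of them higher (background 33.9%) and 4 lower (33%) in caput than in cauda. The higher one was Tgm3, a transglutaminase, by 4.16 (adjusted p = 3.48e-06). Lce6a, a late cornified envelope gene, had 0 and 0.0567 RPKM in caput, 0 and 0.244 RPKM in corpus, and 36 and 29.4 RPKM in cauda. Lor, which encodes the cornified envelope protein loricrin, had 0.619 and 0.942 RPKM in caput, 2.9 and 2.45 RPKM in corpus, and 11.2 and 12.5 RPKM in cauda, and was lower in caput than in cauda by -3.99 (adjusted p = 4.76e-07). The envelope genes Flg, Cdsn and Sprr3 had no read.

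**Figure D5:**
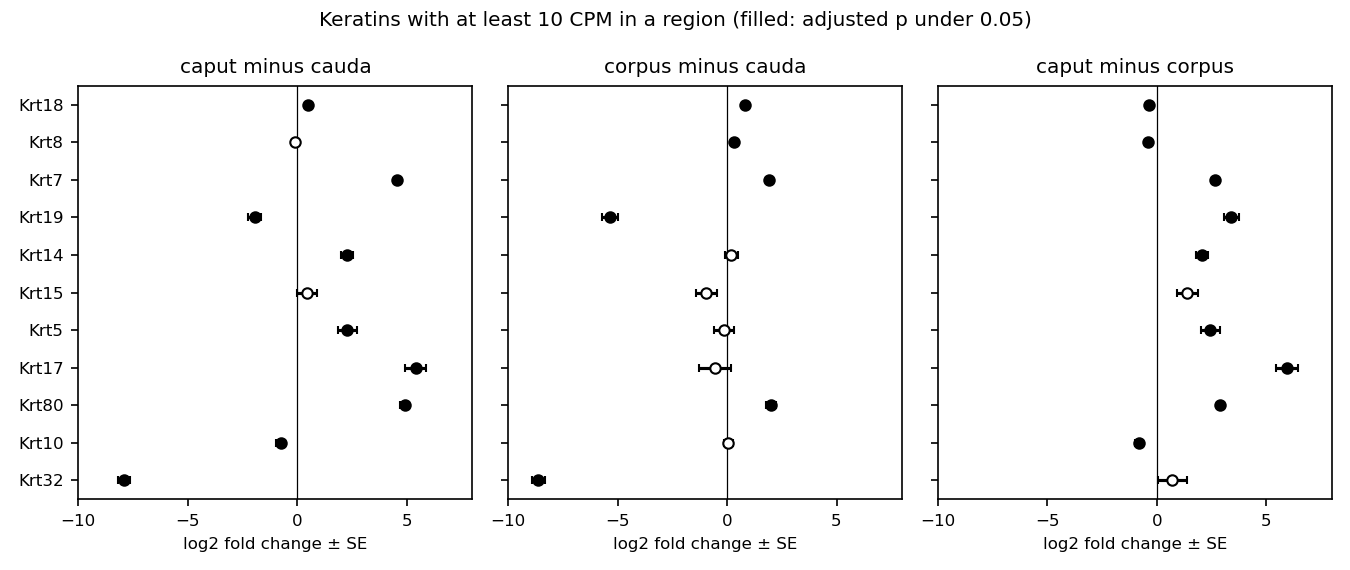
Log2 fold changes ± SE of the 11 keratins with at least 10 CPM in a region, in caput minus cauda, corpus minus cauda and caput minus corpus; filled points have an adjusted p under 0.05. Krt32 lies far to the left against cauda in both comparisons, and Krt7, Krt17 and Krt80 lie to the right in both comparisons of caput.

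Proteins that tie keratin filaments to junctions were mostly higher in caput. Of 20 linker and desmosome genes 17 were tested; 12 were higher (background 33.9%) and 1 lower (33%) in caput than in cauda, with a median log2 fold change of 1.13, against 0.04 over all tested genes. In caput minus corpus 12 were higher (background 33.2%), with a median of 1.38, and in corpus minus cauda 4 were higher (17.3%) and 1 lower (18%), with a median of 0.09. Dsp, the desmosomal protein that binds keratin filaments, had 11.8 and 9.51 RPKM in caput, 2.86 and 2.98 RPKM in corpus, and 2.39 RPKM in both cauda libraries, and was 2.09 higher in caput than in cauda (adjusted p = 2.63e-07). Dst, a hemidesmosomal linker that is also in the list of basal markers, rose by 2.69 (adjusted p = 5.26e-08), Pkp3, a desmosomal plaque protein, by 3.45 (adjusted p = 1.51e-07), and Plec, the linker plectin, by 1.65 (adjusted p = 1.52e-06) in caput over cauda. Perp, a desmosomal membrane protein, was the member lower in caput, by -0.74 (adjusted p = 1.1e-05). Of 18 other intermediate filament genes 13 were tested, with 5 higher and 3 lower in caput than in cauda, so 8 were called, a share close to the 66.9% of all tested genes. Nes (nestin) was higher by 4.22 (adjusted p = 2.85e-06) and Ina (a neuronal filament protein) lower by -4.29 (adjusted p = 1.17e-06). Vim, the filament of mesenchymal cells, had 2.03 and 4.58 RPKM in caput, 1.57 and 1.33 RPKM in corpus, and 1.42 and 2.9 RPKM in cauda, and was not called in caput minus cauda (0.55, adjusted p = 0.33). Of 16 transcription factors known to act on keratin genes 14 were tested, with 7 higher and 4 lower in caput than in cauda, against 33.9% and 33% of all tested genes. Klf4, a factor of differentiating epithelium, was higher by 2.33 (adjusted p = 2.62e-05), and Grhl1, a regulator of desmosomal genes, was lower by -1.78 (adjusted p = 9.93e-06).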

How the data were processed

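Total RNA of sorted clear cells was measured by RNA sequencing. The authors deposited read counts per gene, in a file per library, and RPKM values in a table with a gene length column in bases (unit "other"). The submitters' processing notes name STAR, HTSeq, edgeR and mm9; versions and the annotation release were not given in the sources used here. Counting was unstranded, per the names of the deposited files, so overlapping and antisense genes cannot be told apart. Rows without a gene stayed out of library sizes and tests. They held 33.11% to 38.59% of records for lack of a unique position, 6.67% to 9.48% for lack of a feature and 1.39% to 1.83% as ambiguous. The deposited RPKM were rebuilt from counts, length and 1 factor per library.

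Counts entered edgeR 4.0.16 (R 4.3.3) in 1 fit of all 6 libraries: filterByExpr by region, TMM, robust quasi-likelihood, two-sided, Benjamini-Hochberg over 15816 genes, called under 0.05, with 3 residual degrees of freedom. The procedure was tested on simulated data. Replicates differed by more than sampling noise (chi-square per degree of freedom 17.18, 9.57 and 12.17 in caput, corpus and cauda). Folds against 0 reads use a floor of 3 reads over the group, and those against 1 to 3 reads a 95% counting interval; reads carry no molecular identifiers, so these cover counting error only. Alternatives were DESeq2 1.42.0, limma 3.58.1 on log2(RPKM + 0.5), other scalings and filters, a replicate block and each library left out. Keratins with a mean of at least 1 CPM in a region, or over 10 reads in a library, were named, and those of at least 10 CPM got all 3 comparisons. The members and lists were chosen with earlier results of these data known. Of the 50 identifiers all matched GENCODE M21, 49 with the same symbol. Promoters are RefSeq GRCm38.p6, another build than the files, matched by symbol.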

Additional observations from a re-analysis of the deposited data

How the results depend on the processing

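Limits: with 2 libraries per region and 3 residual degrees of freedom, single libraries decide the calls of low keratins. Keratins under 3 reads were not detectable at this depth.

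Among the alternative values of the fold changes of the 18 tested keratins, 665 kept direction and side of the threshold, 22 lost a call, 11 gained one and 11 changed sign. Those with a call before or after came from library totals: Krt8 (0.75) and Krt10 (0.11) in caput minus cauda, Krt18 (0.25) and Krt8 (0.17) in caput minus corpus. The others were uncalled before and after. With 1 library left out, Krt15 ran from -0.08 (without caput 2) to 0.85 in caput minus cauda, and in corpus minus cauda Krt5 ran from -0.67 to 0.35 (0.25 without corpus 2, 0.35 without cauda 1), Krt14 from -0.07 (without corpus 1) to 0.45, Krt17 from -3.35 to 0.31 (without corpus 1) and Krt10 from -0.12 (without cauda 2) to 0.26. Krt5 was 0.13 there with library totals. With library totals 0 keratins were lower in caput minus corpus, against 3, and the share of called genes that were higher was 78.7%, 74.8% and 74% in caput minus cauda, corpus minus cauda and caput minus corpus, against 50.7%, 49% and 51.1%. The cause was not tested. The type I over type II ratio moved with gene length: in caput to 1.64 per longest coding transcript and 0.792 per coding length, and in corpus to 2.24 per coding length. On log2(RPKM + 0.5) the changes of low keratins are smaller by construction, as for Krt32 in caput minus cauda (-5.37).

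Leaving out 1 library gave 8 to 9 keratins higher and 4 to 7 lower in caput minus cauda, 4 higher and 4 to 6 lower in corpus minus cauda, and 9 to 12 higher and 2 to 3 lower in caput minus corpus; genes called were 8885 to 10346, 3767 to 6026 and 8424 to 9982, and a region effect held for 15 to 17. The 4 keratins lower in caput minus cauda came without cauda 1.

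Replicate numbers 1 and 2 are shared by the regions, but nothing in the labels pairs the libraries (correlation of replicate differences 0.19, 0.16 and 0.13). With a replicate block 10850, 6090 and 10633 genes were called in caput minus cauda, corpus minus cauda and caput minus corpus, and keratins higher and lower were 8 and 7, 4 and 6, and 10 and 3, with 17 for a region effect. The call lost was Krt79 in caput minus cauda (1.88, adjusted p = 0.0604).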
